A study of Mus musculus with 426 samples.

Results

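The genes described here are Cyr61, Ctgf, Ankrd1, Amotl2 and Lats2, 5 genes that the transcription co-activator YAP is known to switch on. They were chosen by name, as the rows of the RNA table that carry these symbols, and make up 5 of the 24424 gene rows used. YAP and its relative TAZ carry no DNA-binding domain of their own and reach DNA through TEAD transcription factors. The Hippo kinase cascade phosphorylates them and keeps them out of the nucleus, whereas spread cell shape, stiff matrix and serum signals favour their entry. Cyr61 (now Ccn1) and Ctgf (now Ccn2) encode secreted matricellular proteins of the CCN family. Ankrd1 encodes an ankyrin repeat protein of the nucleus and the muscle sarcomere. Amotl2, an angiomotin that binds YAP, and Lats2, the kinase that phosphorylates YAP, act as brakes on the pathway and are themselves among its targets.

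RNA and DNA were read together from single cells of an orthotopic tumour model of pancreatic cancer. Cells of the line KPC1199-EGFP, which carries green fluorescent protein (GFP), were given in matrigel into the pancreas of C57BL/6 males 6 to 8 weeks old, 50000 per mouse, and tumours grew for a further 6 to 8 weeks. All tumours came from this 1 line. There were 8 groups of cells from 3 mice. From the primary tumour, sorted cells were CD45+ (leukocytes, 56 cells kept), EpCAM+ (epithelial surface marker, 25), GFP+EpCAM+ (31) and GFP+ (76). GFP+ cells were also sorted from metastases in the peritoneum (85 cells), kidney (44), liver (16) and spleen (35), the last 3 sites in mice 2 and 3 only. The EpCAM+ label does not state GFP, so that group can hold host epithelium.

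A cell was kept with at least 500 detected genes and 10000 RNA counts, which left 368 of 418 cells with 10805 to 17845616 counts each (median 1016776). Of 3588 pairs of libraries of the same group and mouse, 2 pairs in the peritoneum of mouse 1 differed in their DNA counts by less than the sampling noise, and each was averaged and counted as 1 cell. Their RNA counts differed by more than sampling noise (chi-square per degree of freedom 5.79 and 1.72), so it is not certain that each pair is 1 cell. Levels are counts scaled to a cell total of 1000000 (CPM), averaged over the cells of a mouse and then given as mean ± SD over mice. Tests used the counts summed over the cells of a mouse and group, 21 sums of 535632 to 84359714 counts. All 7 comparisons are against GFP+ primary cells and share those 3 sums. A single cell gave up to 75.3% of a sum (liver of mouse 2), and the smallest sum was that of the liver of mouse 3. Summed CPM of 10 leukocyte markers lay between 9004 and 12435 in CD45+ cells, against 78.9 to 512 in GFP+ primary cells. Epithelial markers reached 12525 to 22719 in EpCAM+ and 16831 to 26596 in GFP+EpCAM+ cells, against 9944, 2168 and 930.5 in GFP+ primary cells of mice 1, 2 and 3. Fibroblast markers stood at 2447, 14904 and 5282 in the same GFP+ primary cells, so the GFP+ sorts were not uniformly epithelial.

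Sequences around an annotated start of 4 of the genes are shown because all 4 hold the 6 bases that TEAD factors bind. These bases lie before that start in Cyr61, Ankrd1 and Amotl2 and just after it in Lats2. The sequences were taken from RefSeq windows of 300 bases, 250 before to 50 after the annotated start, on the mouse build GRCm38.p6. In Amotl2 and Lats2 the start used lies inside the gene span of that build. RefSeq windows matched Cyr61 (under Ccn1), Ankrd1, Amotl2 and Lats2, and Ctgf is named only. Capitals mark the TEAD core GGAATG or its reverse complement CATTCC, and each sequence runs 5′ to 3′ on the strand of the gene. For Cyr61 and Ankrd1 the 250 bases before the start are given, and for Amotl2 and Lats2 the 30 bases around the match.
Cyr61 (chr3:145649986-145650235, minus strand): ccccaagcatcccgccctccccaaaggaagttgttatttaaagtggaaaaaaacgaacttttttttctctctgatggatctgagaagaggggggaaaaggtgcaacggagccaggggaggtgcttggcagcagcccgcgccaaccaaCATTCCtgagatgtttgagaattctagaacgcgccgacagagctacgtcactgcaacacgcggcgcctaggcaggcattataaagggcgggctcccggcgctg
Ankrd1 (chr19:36119845-36120094, minus strand): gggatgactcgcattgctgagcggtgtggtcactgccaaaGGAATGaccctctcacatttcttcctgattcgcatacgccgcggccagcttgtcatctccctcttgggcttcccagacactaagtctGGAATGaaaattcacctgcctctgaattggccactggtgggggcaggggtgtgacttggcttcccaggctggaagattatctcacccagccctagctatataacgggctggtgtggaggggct
Amotl2 (chr9:102717727-102717756, plus strand): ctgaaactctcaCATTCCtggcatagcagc
Lats2 (chr14:57746102-57746131, minus strand): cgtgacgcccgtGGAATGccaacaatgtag
With the annotated start at 0, the match began at position -103 in Cyr61, at -210 and -123 in Ankrd1, at -65 in Amotl2 and at 4 in the first of 2 Lats2 windows, the second holding none. The gene spans begin at 102717091 for Amotl2 (plus strand) and at 57746212 for Lats2 (minus strand). The Amotl2 match thus lies within the gene span and not before it. The core occurred in 4817 of 32851 RefSeq windows (14.7%). Among 17 other genes commonly listed as YAP or TAZ targets, 11 had a window and 3 of these held the core. A match of 6 letters is a description of the sequence and not a binding site.

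Cyr61 was far lower in the leukocyte sort than in tumour cells sorted by GFP. CD45+ cells averaged 41.95, 36.2 and 18.4 CPM in mice 1, 2 and 3, against 622, 1565 and 2327 CPM in GFP+ primary cells. The groups did not overlap, and the highest CD45+ mouse lay far below the lowest GFP+ primary mouse. Group means were 32.2 ± 12.3 CPM in CD45+ cells and 1505 ± 854 CPM in GFP+ primary cells (SD, n = 3 mice each). On the summed counts Cyr61 fell by 7.95 on the log2 scale in CD45+ cells (SE 1.34, edgeR's quasi-likelihood test, adjusted p = 0.00221), lower in 3 of 3 mice. Across all genes this comparison called 0.817% (161 of 19703), and 0.188% as lower, while 3415 genes (17.3%) had an unadjusted p under 0.05. Without mouse 3 the value was -8.46 with an adjusted p of 0.0567. The top cell gave 69.2%, 68.1% and 21% of the Cyr61 counts in the GFP+ primary sums of mice 1, 2 and 3. In the CD45+ sums the top cell gave 65.25%, 69.9% and 38.8%. Fibroblast markers ran from 26.1 to 247 summed CPM in CD45+ cells, against 2447 to 14904 in GFP+ primary cells, and 4 of the 10 were called lower there as well. Whether the sort alone sets the Cyr61 difference was not tested.

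Most CD45+ cells had few Cyr61 counts. The median over cells was 5.32, 0 and 5.02 CPM in CD45+ cells of mice 1, 2 and 3, against 143, 626 and 735 CPM in GFP+ primary cells. Only 5 of 56 CD45+ cells reached 100 CPM (8.93%, exact binomial 95% interval 2.96 to 19.6%), against 51 of 76 GFP+ primary cells (67.1%, 55.4 to 77.5%). These intervals treat cells as independent and cover counting error only. The highest CD45+ cell stood at 533.5 CPM, with Ptprc (the CD45 gene) at 192 CPM, Epcam at 30.03 CPM and Col3a1, a fibroblast collagen, at 0. The next, at 442 CPM, rested on 5 counts of 11321 and held Ptprc and Epcam at 177 CPM each and Col3a1 at 442 CPM. The other 3 cells had Cyr61 at 102.5, 138 and 266 CPM, and each also had counts of Ptprc and Epcam.

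**Figure D1:**
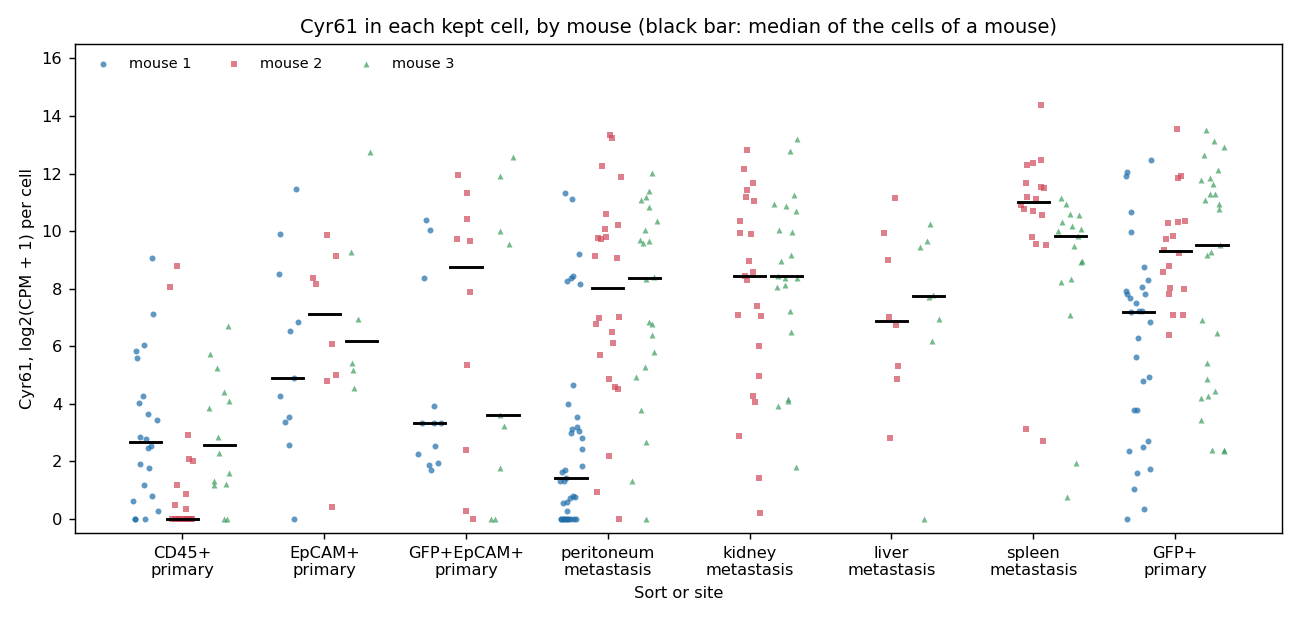
Cyr61 in single cells, as log2(CPM + 1), by group and mouse. Each point is 1 kept cell. CD45+ cells lie near the floor with 5 of 56 at or above 100 CPM, whereas 51 of 76 GFP+ primary cells are there.

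Cyr61 varied widely among the groups that can hold tumour cells. The order of the means ran from spleen metastases (2117 ± 1732 CPM, n = 2) through GFP+ primary (1505 ± 854, n = 3), kidney (1297 ± 138, n = 2), peritoneum (859 ± 683, n = 3), GFP+EpCAM+ (839 ± 553, n = 3) and EpCAM+ (659.6 ± 557, n = 3) to liver (464 ± 65.1, n = 2). All neighbours in this order overlapped between mice, and only liver and the CD45+ group below it did not. Peritoneal cells averaged 173, 1538 and 865 CPM in mice 1, 2 and 3, against 622, 1565 and 2327 CPM in GFP+ primary cells. Mouse 1 was the lowest of the 3 mice at both places. Spleen metastases averaged 3341 CPM in mouse 2 and 892 CPM in mouse 3, where kidney metastases averaged 1200 and 1394 CPM and liver metastases 510.3 and 418 CPM. The sorted epithelial cells were as uneven, with 403, 277 and 1299 CPM in EpCAM+ and 229, 980.0 and 1307 CPM in GFP+EpCAM+ cells of mice 1, 2 and 3.

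None of these 6 comparisons called Cyr61. The log2 difference was -1.36 (SE 1.00, edgeR adjusted p = 0.686) in EpCAM+ and -1.15 (SE 1.00, adjusted p = 0.888) in GFP+EpCAM+ cells, each against GFP+ primary cells. In metastases it was -2.19 (SE 0.94, adjusted p = 0.638) in the peritoneum, -0.45 (SE 1.02, adjusted p = 1.00) in the kidney and -3.17 (SE 1.16, adjusted p = 0.240) in the liver. Spleen metastases had a difference of 0.02 (SE 1.01, adjusted p = 1). The unadjusted p was 0.0223 in the peritoneum and 0.0074 in the liver. These comparisons called 0% of genes for EpCAM+, 0% for GFP+EpCAM+, 0.0091% for peritoneum, 0% for kidney, 0.0136% for liver and 0% for spleen. DESeq2 called 877, 871, 165, 218, 1155 and 200 genes in these 6 comparisons, and edgeR's unadjusted p was under 0.05 for 2256, 2002, 1341, 1321, 3130 and 1355, in the order EpCAM+, GFP+EpCAM+, peritoneum, kidney, liver, spleen. With the mouse as a block, Cyr61 in the liver was called (-3.98, edgeR adjusted p = 0.00349), in a fit that called 119 genes against 3 without the block. An unpassed threshold does not show that these groups held Cyr61 at the same level, since the standard errors near 1 leave room for differences of several-fold.

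Single cells of 1 sort spread widely. In the 7 groups sorted by GFP or EpCAM, 87 of 312 cells reached 1000 CPM of Cyr61, and the highest 32 cells held 58.5% of the CPM summed over cells. The highest cell, in the spleen of mouse 2, had 21330 CPM. The median peritoneal cell had 1.66, 329.5 and 330.3 CPM in mice 1, 2 and 3, against 143, 626 and 735 CPM in GFP+ primary cells. The peritoneum of mouse 1 thus held many cells with next to no Cyr61. Median cells stood at 343 and 345 CPM in kidney, 116.5 and 213 CPM in liver, and 2062 and 912 CPM in spleen metastases of mice 2 and 3. In EpCAM+ cells the medians were 28.6, 177 and 82.2 CPM in mice 1, 2 and 3, and in GFP+EpCAM+ cells 9.05, 516 and 11.1 CPM. A few cells thus carried the mean of both sorts in mice 1 and 3. In mouse 2, 4 of 8 EpCAM+ cells and 6 of 10 GFP+EpCAM+ cells reached 100 CPM.

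**Figure D2:**
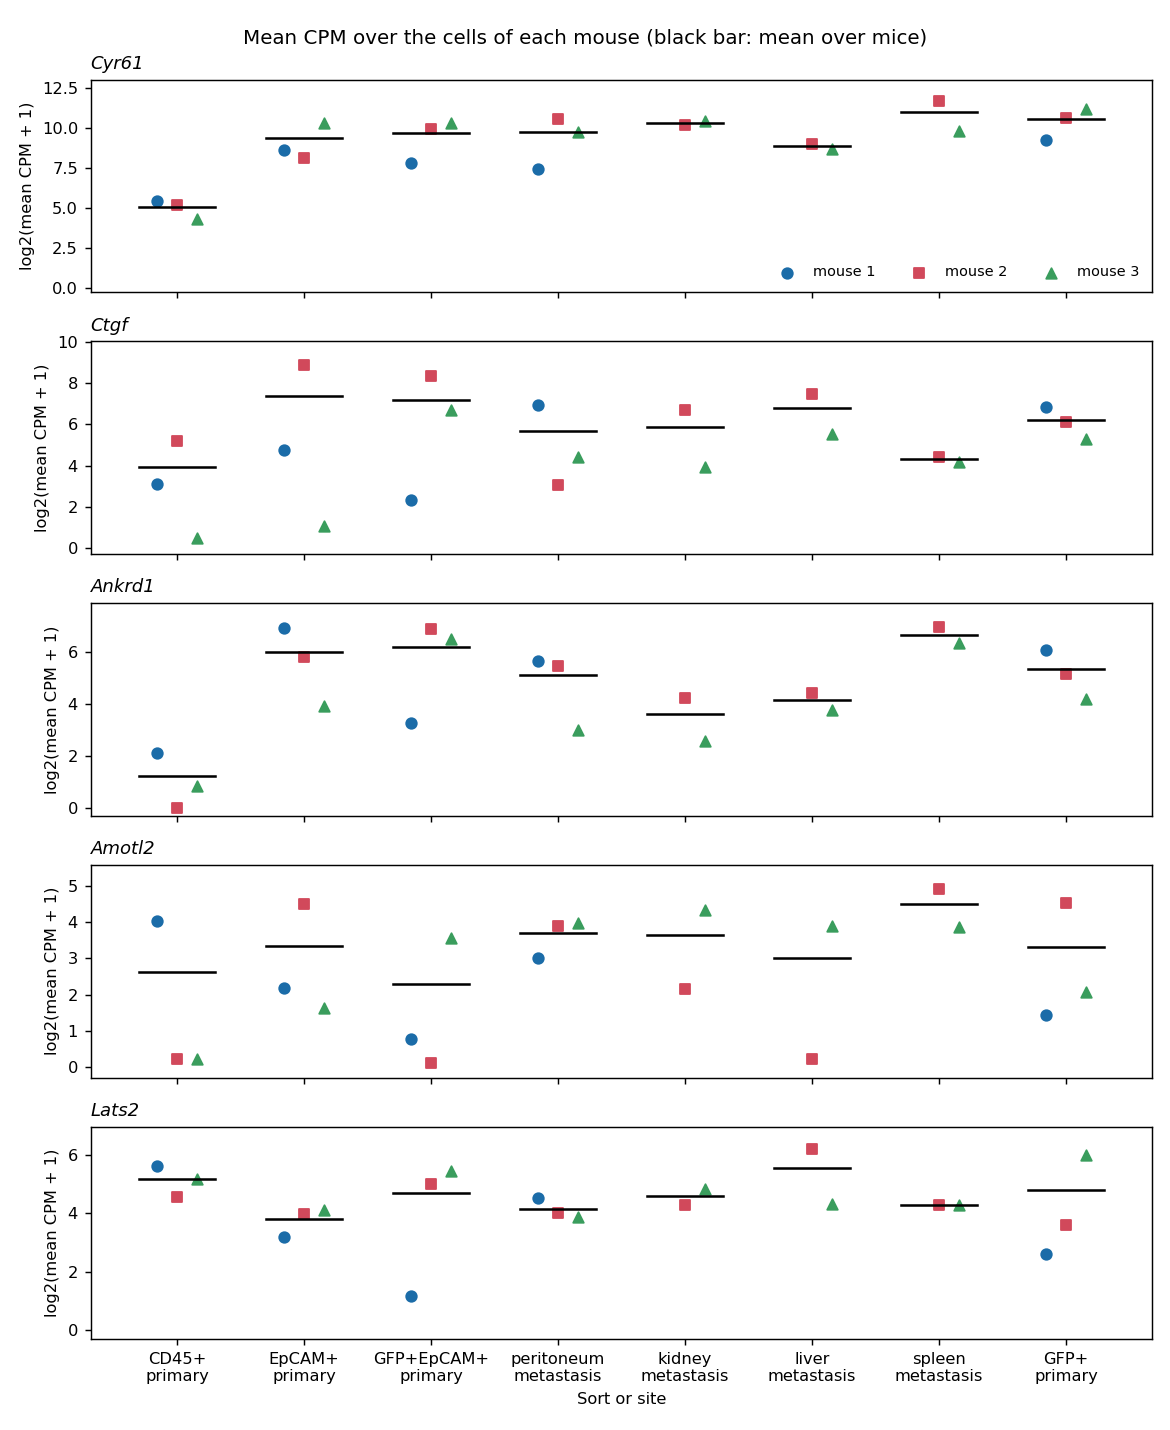
Mean CPM of the kept cells of each mouse (points) for the 5 genes by group, as log2(mean CPM + 1), with the mean over mice as a bar. Cyr61 in the CD45+ group is at 32.2 CPM, below every other group, while the other genes overlap between most groups.

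Cyr61 went with the fibroblast markers inside several groups. Across the 85 peritoneal cells, Spearman's rank correlation between Cyr61 and the summed CPM of 10 fibroblast markers was 0.694. With the epithelial markers it was -0.465. Over all mice the fibroblast value was 0.495 in kidney, 0.484 in CD45+, 0.459 in GFP+EpCAM+ and 0.407 in GFP+ primary cells. It was lower in liver (0.206), EpCAM+ (0.16) and spleen cells (0.0972). In CD45+ cells the epithelial value was also positive (0.363). Within mice 1, 2 and 3 the fibroblast value was 0.481, 0.302 and 0.640 in the peritoneum, against 0.335, 0.499 and 0.304 in GFP+ primary cells. Kidney metastases gave 0.475 and 0.560 within mice 2 and 3, and spleen metastases 0.377 and 0.147. The epithelial value within mice 1, 2 and 3 was -0.427, 0.198 and -0.0220 in the peritoneum, against 0.103, -0.224 and 0.0629 in GFP+ primary cells. The negative epithelial value over all 85 peritoneal cells was thus not seen within each mouse. At the level of mice, the fibroblast markers summed to 1136, 16428 and 10052 CPM in the peritoneum, where Cyr61 was at 173, 1538 and 865 CPM. The epithelial markers of the same cells summed to 8756, 135 and 347 CPM, so the mouse with most epithelial marker RNA had least Cyr61. The rank correlation between Cyr61 and a cell's total counts lay between -0.127 and 0.121 in the 8 groups. Cells of a mouse share their tumour and both measures come from the same library, so these values are descriptions. Their part in the differences between groups was not tested.

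**Figure D3:**
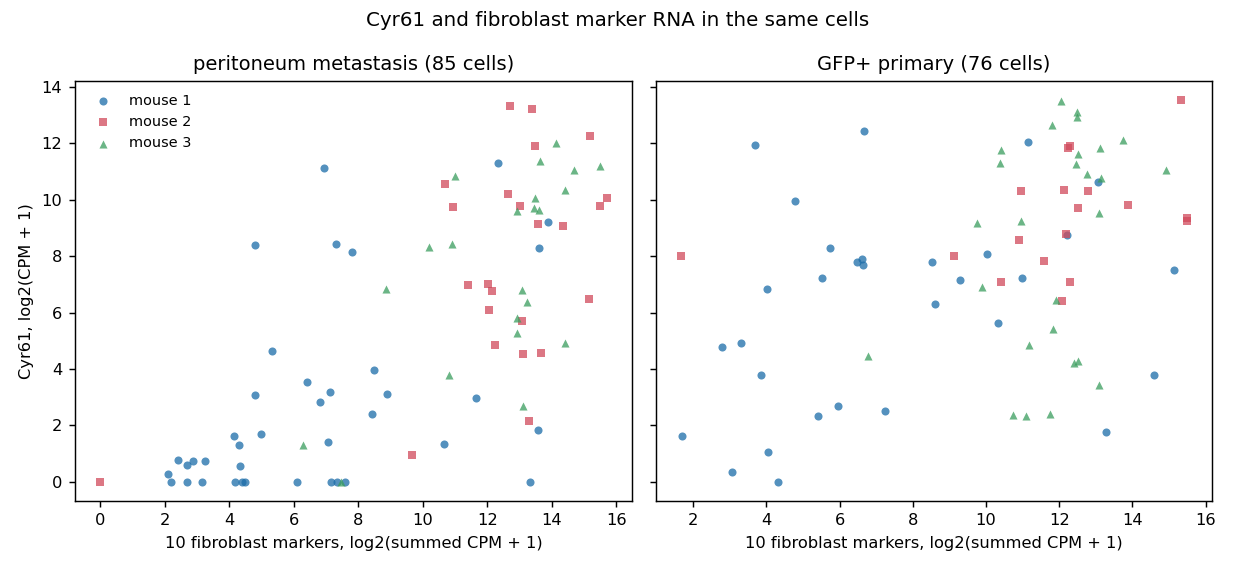
Cyr61 against the summed fibroblast markers in single cells, both as log2(CPM + 1), for peritoneal metastases and GFP+ primary cells, coloured by mouse. Peritoneal cells of mouse 1 gather at the low end of both axes, in a group whose rank correlation over all 85 cells is 0.694.

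Immediate early genes, which cells switch on within minutes of a serum or stress signal, went with Cyr61 from cell to cell in some groups and mice. The rank correlation with the summed CPM of 16 such genes was 0.581 in peritoneal, 0.515 in spleen and 0.406 in GFP+ primary cells, and -0.0746 in CD45+ and 0.07 in EpCAM+ cells. Within mice 1, 2 and 3 it was 0.108, 0.420 and 0.661 in the peritoneum, against 0.0472, 0.228 and 0.548 in GFP+ primary cells, so it was near 0 in mouse 1 at both places. Summed over those genes, the peritoneum had 2433, 14767 and 14295 CPM in mice 1, 2 and 3, against 13202, 39790 and 23554 CPM in GFP+ primary cells. The part of these genes in the Cyr61 differences was not tested.

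Ctgf, the closest relative of Cyr61 among these genes, was also lowest in the CD45+ group but had its highest mean in another group. EpCAM+ cells averaged 26.1, 467 and 1.07 CPM in mice 1, 2 and 3 and GFP+EpCAM+ cells 4.05, 326 and 103 CPM, against 113, 69.6 and 37.9 CPM in GFP+ primary cells. Mouse 2 was the highest in both EpCAM sorts. Peritoneal cells had 122, 7.29 and 20.3 CPM, the reverse of their order for Cyr61. In mice 2 and 3 the levels were 102 and 14.3 CPM in kidney, 175 and 45.5 CPM in liver, and 20.1 and 17.4 CPM in spleen metastases. CD45+ cells had 7.64, 35.5 and 0.394 CPM. All neighbours in the order of group means overlapped, which ran from EpCAM+ (165 ± 262 CPM) to CD45+ (14.5 ± 18.6 CPM, n = 3 mice each). The edgeR log2 difference of CD45+ against GFP+ primary cells was -1.97 (SE 1.79, adjusted p = 0.586). That of spleen metastases was -3.41 (SE 1.71, adjusted p = 0.806), with an unadjusted p of 0.0486.

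Ctgf came from few cells. The highest 32 of the 312 cells held 77.2% of its summed CPM. At least 100 CPM was reached by 12 of 31 GFP+EpCAM+ cells (38.7%), 6 of 16 liver cells (37.5%), 4 of 25 EpCAM+ cells (16%), 7 of 85 peritoneal cells (8.24%) and 2 of 56 CD45+ cells (3.57%), against 17 of 76 GFP+ primary cells (22.4%). In the GFP+EpCAM+ sort 9 of the 12 cells were from mouse 2.

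Ankrd1 was lowest in the leukocyte sort as well, but missed the threshold. CD45+ cells averaged 3.31, 0 and 0.795 CPM in mice 1, 2 and 3, against 65.6, 34.5 and 17.2 CPM in GFP+ primary cells. The groups did not overlap, and none of the 20 CD45+ cells of mouse 2 had a count. The edgeR log2 difference was -5.25 (SE 1.94, adjusted p = 0.175). DESeq2 and limma on log2(mean CPM + 0.1) called it, at -4.37 (adjusted p = 0.0231) and -5.66 (adjusted p = 0.0388), and DESeq2 called 1904 genes in that comparison (889 higher, 1015 lower) against 161 by edgeR (124 higher, 37 lower). Spleen metastases had the highest mean, 121 and 79.01 CPM in mice 2 and 3, against 34.5 and 17.2 CPM in GFP+ primary cells of the same mice. In mouse 3 this rested on 1 cell at 1019 CPM with 74.6% of the counts, and the median cell was at 0. Without the highest cell of each mouse and group the mean was 57.4 CPM in spleen and 19.5 CPM in GFP+ primary cells. Kidney metastases had 17.8 and 4.91 CPM, a log2 difference of -3.74 (SE 1.83, edgeR adjusted p = 0.801) with an unadjusted p of 0.0441. Levels were 120, 54.8 and 14.2 CPM in EpCAM+, 8.64, 118 and 88.2 CPM in GFP+EpCAM+, and 48.9, 43.1 and 7.04 CPM in peritoneal cells of mice 1, 2 and 3, and 20.5 and 12.6 CPM in liver cells of mice 2 and 3. Within the order of means, kidney and CD45+ were the only neighbours that did not overlap. Cells at 100 CPM or more were 10 of 35 in the spleen (28.6%), 10 of 85 in the peritoneum (11.8%) and 0 of 56 in CD45+ (exact 95% upper bound 6.38%), against 5 of 76 in GFP+ primary cells (6.58%).

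Amotl2 and Lats2, the brakes on the pathway, were low in most cells and gave no call in any comparison. Amotl2 means per group ran from 3.87 ± 6.05 CPM in GFP+EpCAM+ cells to 21.6 ± 11.3 CPM in spleen metastases, and all neighbours overlapped. The largest Amotl2 value was in the spleen of mouse 2 at 29.6 CPM, with 13.6 CPM in mouse 3, against 1.71, 22.1 and 3.19 CPM in GFP+ primary cells of mice 1, 2 and 3. Its log2 difference in the spleen was 4.53 (SE 1.83, edgeR adjusted p = 0.634, unadjusted 0.0149), and 1 cell gave 98.9% of the 3025 counts of Amotl2 in the mouse 2 sum. In CD45+ cells Amotl2 had 15.3, 0.166 and 0.171 CPM and a log2 difference of -0.90 (SE 1.52, adjusted p = 0.778). Lats2 was the only gene of the 5 whose mean over mice was not lower in CD45+ than in GFP+ primary cells. CD45+ cells averaged 48.5, 22.5 and 35.1 CPM, against 5.16, 11.1 and 62.9 CPM in GFP+ primary cells, and the groups overlapped. The log2 difference was 0.38 (SE 1.72, edgeR adjusted p = 0.922). Liver metastases had the highest Lats2 mean, 72.1 and 18.8 CPM in mice 2 and 3, but 1 cell at 418 CPM gave 99.6% of the 6298 Lats2 counts of the mouse 2 sum. Without the highest cell of each mouse and group the Lats2 mean was 17.7 CPM in liver and 18.5 CPM in CD45+ cells. The 8 group means lay between 13.02 and 45.4 CPM. Kidney (18.6 and 27.5 CPM) and spleen (18.5 CPM in both mice) were the only neighbours in the Lats2 order that did not overlap.

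**Figure D4:**
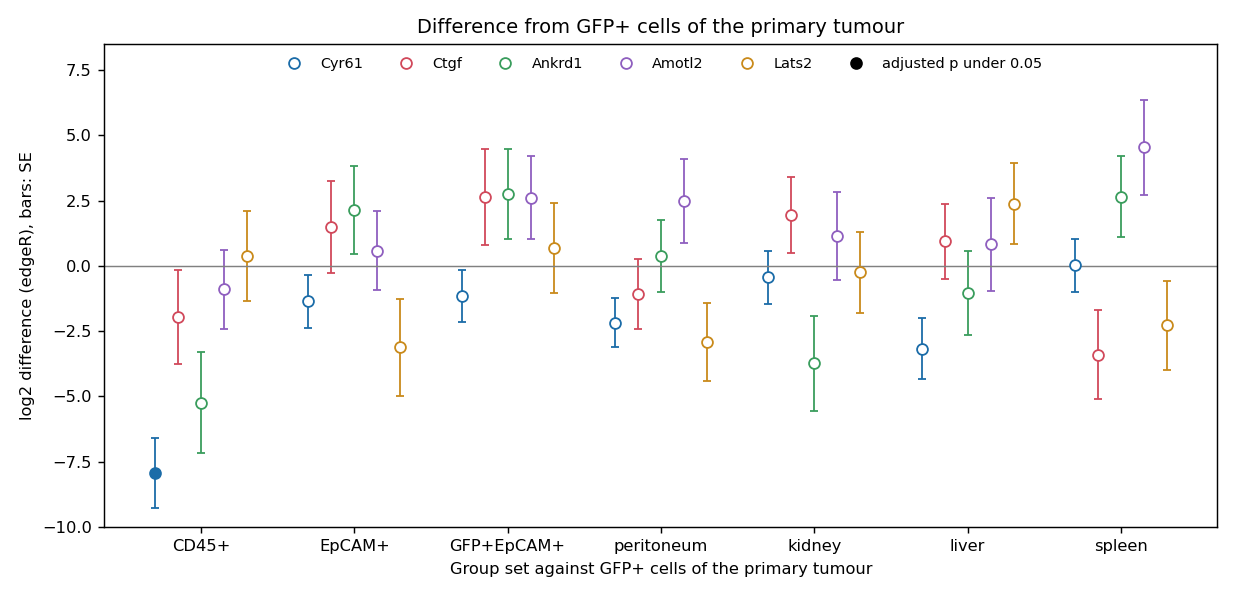
Log2 difference of each gene against GFP+ primary cells in the 7 comparisons, from edgeR on counts summed per mouse, with bars of ± 1 SE. Only Cyr61 in CD45+ cells (-7.95) passed the threshold of 0.05 on the adjusted p.

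Among the 5 genes, 1 was called in CD45+ cells, where 0.817% of all genes were, and 0 in each of the other comparisons. At an unadjusted p under 0.05 there were 2 such genes for CD45+ (17.3% of all genes), 0 for EpCAM+ (11.5%) and 0 for GFP+EpCAM+ (10.2%). The sites had 1 for peritoneum (6.1% of all genes), 1 for kidney (6.01%), 1 for liver (14.2%) and 2 for spleen (6.16%). DESeq2 called 2 of the 5 in CD45+, and 1904 of 23077 over all genes. The median log2 difference of the 5 was -1.97 in CD45+ cells, where it was 0.20 over all genes tested, and -1.08 in the peritoneum, where it was 0.08. In GFP+EpCAM+ cells the median was 2.62, which is the value of Amotl2 and rests on 1 cell that held all 569 counts of Amotl2 in the mouse 3 sum. Without the deepest cell of each sum Amotl2 was at -2.58 there, and Ctgf, at 2.63, was at -0.17 without mouse 2.

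Detection of a gene depends on a cell's depth, so each cell was also thinned to 10000 counts. After thinning Cyr61 was detected in 11 of 56 CD45+ cells (19.6%, exact 95% interval 10.2 to 32.4%), against 49 of 76 GFP+ primary cells (64.5%, 52.7 to 75.1%). Without thinning the shares were 71.4% in CD45+ and 98.7% in GFP+ primary cells, with median depths per mouse of 512017 to 1116564 counts in CD45+ and 798524 to 3059170 counts in GFP+ primary cells. With thinning, the share was 41.9% for GFP+EpCAM+ and 48% for EpCAM+ cells. Among the metastases it ran from 48.2% (peritoneum) and 70.5% (kidney) to 81.3% (liver) and 85.7% (spleen). The CD45+ share was the lowest, but it is not an independent background, because CD45+ cells are themselves the low group of the main comparison. Whether the Cyr61 counts in CD45+ cells came from those cells was not tested.

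**Figure D5:**
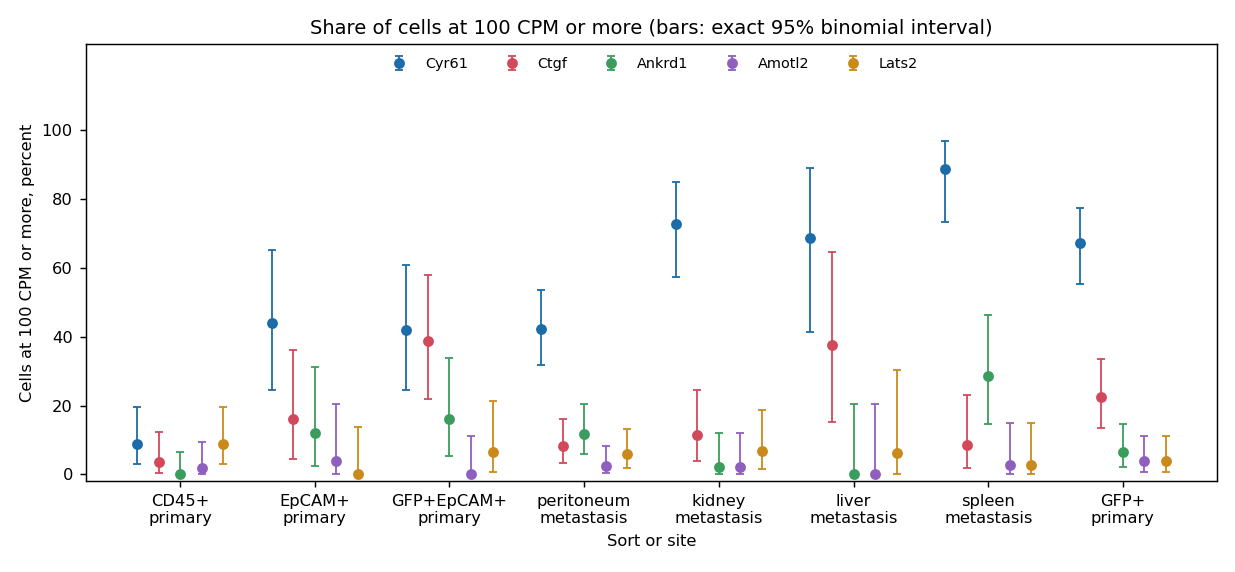
Share of kept cells with at least 100 CPM of each gene by group, in percent, with exact binomial 95% intervals that cover counting error only. Cyr61 is at 8.93% in CD45+, 88.6% in spleen and 67.1% in GFP+ primary cells.

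The genes met in the same cells to unequal degrees. Of 312 cells sorted by GFP or EpCAM, 185 had at least 100 CPM of Cyr61 and 54 of Ctgf, and 35 had both, which is 18.9% of the Cyr61 cells and 64.8% of the Ctgf cells. Spearman's rank correlation between the pair was -0.02 over these cells. Ankrd1 reached 100 CPM in 34 cells, and 28 of these also had Cyr61, 82.4% of the Ankrd1 cells and 15.1% of the Cyr61 cells, with a rank correlation of 0.218. In the spleen the rank correlation between Cyr61 and Ankrd1 was 0.423 and all 10 Ankrd1 cells had Cyr61, as did 31 of all 35 spleen cells. Ctgf and Ankrd1 met in 8 cells, 14.8% of the Ctgf cells and 23.5% of the Ankrd1 cells. No cell had all 5 genes at 100 CPM, and 4 genes were reached by 1 EpCAM+, 1 peritoneal and 2 GFP+ primary cells. In contrast, 45 of 56 CD45+ cells, 42 of 85 peritoneal cells and 4 of 35 spleen cells had none of the 5, against 20 of 76 GFP+ primary cells. Over the 21 sums Pearson's r between Cyr61 and Ankrd1 was 0.48, and -0.21 once the 3 CD45+ sums were left out. For Cyr61 and Ctgf the same values were 0.18 and -0.33. These relations across cells and sums share library and depth and are given as descriptions.

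The rest of the pathway was read from lists of YAP or TAZ targets, of the factors themselves and of Hippo regulators, all put together with earlier results of these data known. Wwtr1, the gene of TAZ, was at 2.08 ± 0.347 CPM of the summed counts in CD45+ cells, against 267 ± 235 CPM in GFP+ primary cells (edgeR adjusted p = 0.0691). Across the EpCAM sorts and sites Wwtr1 lay between 124 and 291 CPM. Yap1 had 2 CPM in CD45+, 1.48 CPM in EpCAM+ and 1.80 CPM in GFP+EpCAM+ cells. Metastases had 22.7 ± 13.97 CPM (peritoneum), 8.19 ± 5.99 CPM (kidney), 44.7 ± 60.9 CPM (liver) and 20.6 ± 13.05 CPM (spleen) of it, against 8.08 ± 7.76 CPM in GFP+ primary cells. Neither factor passed the threshold in any comparison. Of 7 factors tested in CD45+ cells 0 were called and 2 had an unadjusted p under 0.05, a level that 17.3% of all genes reached in this comparison. The median log2 difference of these factors was -2.57, with 5 negative and 2 positive values, against 0.20 over all genes. Tead2, one of the DNA-binding partners, had 0.185 CPM in CD45+ cells, against 3.58 CPM in GFP+ primary cells (adjusted p = 0.128). Of 16 Hippo kinases and regulators 0 were called in CD45+ cells and 2 passed unadjusted, which is no larger a share than over all genes. Their values were still mostly negative (13 negative, 3 positive), with a median log2 difference of -1.91, against 0.20 over all genes.

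Among 17 other targets, 1 was called in CD45+ cells and 6 had an unadjusted p under 0.05, against 17.3% of all genes. It was F3, the gene of tissue factor, at 9.16 ± 6.61 CPM in CD45+ cells and 285 ± 267 CPM in GFP+ primary cells (log2 difference -5.02, SE 1.16, edgeR adjusted p = 0.0309). Leaving out any 1 mouse ended this call, with adjusted p of 0.163, 0.204 and 0.237, as did limma (0.0614 and 0.0532), a fit of only the compared groups (0.107) and leaving out the deepest cell of each sum (0.0768). Igfbp3, which binds insulin-like growth factors, followed with 2.11 ± 1.78 CPM in CD45+ cells, against 247 ± 41.6 CPM in GFP+ primary cells (adjusted p = 0.0889). The median log2 difference of the 17 in CD45+ cells was -0.98, with 10 negative and 7 positive values, so the targets were not uniformly lower there. In GFP+EpCAM+ cells F3 stood at 1519 ± 1059 CPM, against 285 ± 267 CPM in GFP+ primary cells, and was not called (edgeR adjusted p = 0.275). Liver metastases had Igfbp3 at 5.90 ± 7.50 CPM and Gadd45a, a growth arrest gene, at 6.03 ± 7.32 CPM, against 247 ± 41.6 and 117 ± 27.5 CPM in GFP+ primary cells (adjusted p = 0.214 and 0.218). Foxf2, a forkhead factor, went the other way in kidney metastases, with 76.6 ± 57.8 CPM against 0.688 ± 0.0991 CPM in GFP+ primary cells (adjusted p = 0.332). In the peritoneum 16 of the 17 targets had a negative value and 0 were called. The median there was -1.30 against 0.08 over all genes, and 1 target passed unadjusted, as did 6.1% of all genes.

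Neighbouring programmes were read in the same way. Of 4 further CCN genes 0 were called in CD45+ cells, and all 4 had an unadjusted p under 0.05, 3 with a negative and 1 with a positive value. Over all genes 17.3% had such a p in the CD45+ comparison. Wisp1 had 2.72 CPM in CD45+ cells, against 104 CPM in GFP+ primary cells (edgeR adjusted p = 0.153), and the positive one, Wisp3, 0.818 CPM in CD45+ cells, against 0.0512 CPM in GFP+ primary cells (adjusted p = 0.253). Of 10 contractile targets of the serum response factor, which share growth signals with YAP, 0 were called, 4 passed unadjusted and 3 had a positive value. The median of the 10 was -2.75. Among those that passed was Tpm1 with 21.5 CPM in CD45+ cells, against 367 CPM in GFP+ primary cells. Of 16 immediate early genes 0 were called and 5 passed unadjusted, but 9 of the 16 had a positive value and the median was 0.51. Jun had 73.7 CPM in CD45+ cells, against 1661 CPM in GFP+ primary cells, whereas Btg2, chosen after its values were seen, had 1563 CPM in CD45+ cells, against 354 CPM in GFP+ primary cells (adjusted p = 0.279). All 16 immediate early genes had negative values in the peritoneum, with a median of -1.56, 5 passing unadjusted and 0 called. Over all genes 6.1% passed unadjusted in the peritoneum. Dusp1, a phosphatase gene induced early, was there at 587 ± 232 CPM, against 2070 ± 180 CPM in GFP+ primary cells (adjusted p = 0.696). In the other 6 comparisons 0 genes of these 6 lists were called by edgeR.

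The genes most like Cyr61 over the 21 sums were found by Pearson's r on log2 CPM among 8659 genes. They were Rhoc (r = 0.912), H13 (0.907), Efemp1 (0.879), an extracellular matrix protein, Cdk5rap3 (0.865) and Wwtr1 (0.851). Without the 3 CD45+ sums the values were 0.813, 0.594, 0.262, 0.606 and 0.626. Rhoc and Wwtr1 lie on chromosome 3, as Cyr61 does, and 477 of 8628 genes with a known chromosome are there (5.53%). Ctgf was followed most closely by Sdpr (0.820) and Clcf1 (0.794), Ankrd1 by Steap2 (0.780) and Slk (0.746), Amotl2 by Xpo6 (0.845) and Pcdh17 (0.831), and Lats2 by Fam160a2 (0.863) and Arid1a (0.795). No gene was among the 5 nearest of more than 1 of the 5 targets.

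The DNA of the same cells gave the copy state of the chromosomes that carry these genes. The share of autosomal DNA counts on chromosome 3, relative to CD45+ cells of the same mouse, averaged 1.36 ± 0.0729 in EpCAM+, 1.43 ± 0.101 in GFP+EpCAM+, 1.20 ± 0.0781 in peritoneal and 1.30 ± 0.151 in GFP+ primary cells (SD, n = 3 mice each, cells with at least 50000 DNA counts). Kidney, liver and spleen metastases had 1.25 ± 0.131, 1.37 ± 0.326 and 1.14 ± 0.0128 (n = 2 mice each). The means of all 7 groups were above that of leukocytes, while spleen metastases had the highest mean of Cyr61 RNA and the lowest chromosome 3 share of these 7 groups. By mouse, the peritoneal share was 1.13, 1.28 and 1.19, against 1.47, 1.18 and 1.26 in GFP+ primary cells. Over the cells of all mice together the rank correlation between this share and Cyr61 RNA was 0.437 in the peritoneum and -0.194 in GFP+ primary cells. Chromosome 10, which carries Ctgf, was at 0.758 to 0.819 in the 7 groups, chromosome 9 with Amotl2 at 0.765 to 0.844, chromosome 14 with Lats2 at 0.760 to 0.852, and chromosome 19 with Ankrd1 at 0.921 to 1.19. Shares of a whole chromosome do not show the copy number at the gene itself. Their part in the RNA levels of these genes was not tested.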

How the data were processed

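RNA and DNA reads of each library were separated into exonic and nonexonic reads, per the labels. The authors deposited expected counts per gene for RNA (97.4% of values whole) and counts per bin in 5000 bins for DNA. The submitters' processing notes name STAR, kallisto, Bowtie 1.0 and mm9, with no role for each. Of 24520 RNA rows, 92 ERCC rows (0.000348% of counts) and 4 repeated symbols were left out. The 6 bulk libraries entered no test. For each mouse and group the counts of its kept cells were added up, rounded, filtered with filterByExpr, scaled by TMM and tested with edgeR 4.0.16 (R 4.3.3) quasi-likelihood fits, one for the 4 primary sorts and one for GFP+ primary cells and the 4 sites, with Benjamini-Hochberg adjustment at 0.05. The replicate is the mouse. Each SE of an edgeR log2 difference was worked out as its absolute value divided by the square root of the quasi-likelihood F statistic.

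Members, lists, and tests were chosen with earlier results of these data known. Named genes are the members, the 3 of smallest p per list and the 5 most alike in pattern, and the text gives a selection of these. Alternatives were DESeq2 1.42.0, limma 3.58.1 on log2(mean CPM + 1 or + 0.1), no TMM, no gene filter, stricter cells (2000 genes and 50000 counts), only the groups compared, a replicate block and leaving out each mouse. Mouse numbers mark the same animal and so pair the samples. Deviations of sums from their group means correlated with a median r of 0.0619 within a mouse and -0.0429 between mice in the primary sorts, and 0.084 and -0.0601 in the sites. Exact intervals and floors (3 counts) cover counting error only. Precision is lowest in liver, where the smallest sum had 535632 counts.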

Additional observations from a re-analysis of the deposited data

Results flagged for a closer look

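The 6 bulk samples were outside all comparisons and are listed because they held counts of the 5 genes above the limit that 3 counts of their total allow. Each is 1 library with no replicate. GFP+ primary bulk of mouse 2 (19160676 counts) had Cyr61 at 1387 CPM, Ctgf at 25.6 CPM, Ankrd1 at 41.6 CPM, Amotl2 at 1.77 CPM and Lats2 at 2.71 CPM. GFP+ primary bulk of mouse 1 (2369371 counts), whose marker label reads EpCam, had 276 CPM of Cyr61, 53.6 CPM of Ctgf, 34.2 CPM of Ankrd1, 17.3 CPM of Amotl2 and 23.6 CPM of Lats2. In GFP+ peritoneum bulk of mouse 1 the levels were 160 CPM for Cyr61, 30.7 CPM for Ctgf, 12.8 CPM for Amotl2 and 2.55 CPM for Lats2. GFP-negative peritoneum bulk of mouse 1 had Cyr61 at 191 CPM, Ctgf at 33.1 CPM, Ankrd1 at 12.7 CPM, Amotl2 at 7.64 CPM and Lats2 at 58.6 CPM, with Col3a1 at 5228 CPM. CD45+ primary bulk of mouse 1 (121118 counts) passed the limit for Amotl2 (33.03 CPM) and Lats2 (115.6 CPM), and its Cyr61, at 2 counts, did not. GFP-negative primary bulk of mouse 1 showed Cyr61 at 1174 CPM, which rests on 10 counts of 8520.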

How the results depend on the processing

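Of 455 values that the 35 log2 differences of the 5 genes in 7 comparisons took under the alternatives, 403 kept their direction and side of the threshold, 48 turned, 3 passed the threshold anew and 1 lost it. Cyr61 in CD45+ cells ran from -8.46 to -5.39 with adjusted p from 3.32e-07 to 0.0567. The number of the 5 genes called there was 2 with DESeq2 and 2 with limma on log2(mean CPM + 0.1), Ankrd1 being the added gene, and 0 to 1 when a mouse was left out. With the mouse as a replicate block, 1 gene was called in the liver, Cyr61 at -3.98, and the block changed no other call of the 5 genes. Amotl2 in CD45+ cells was 0.06 with DESeq2. Cyr61 in the spleen was -0.06 with DESeq2, -0.08 without TMM and -1.19 with the block. Leaving out a mouse gave Cyr61 differences of -0.96 to 0.42 in the kidney and -2.71 to 1.39 in the spleen. Some fits that left out a mouse kept 1 sample in a group, which is assumed to vary like the others. Over all genes the CD45+ comparison called 161, against 1904 with DESeq2, 49 without mouse 2 and 19 without mouse 3, and the liver comparison 3, against 119 with the block. DESeq2 moved the median of all genes to 1.09 in the CD45+ comparison, against 0.20 with edgeR. The mean Cyr61 level was 12.3 CPM in CD45+ and 2510 CPM in GFP+ primary cells as CPM of summed counts, and 15.1 CPM in CD45+ cells without the highest cell. Fits without the deepest cell of each sum were added after seeing the data. The cause of these shifts was not tested.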
